A study of Mus musculus with 4 samples.

Results

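The genes described are 32 genes of sterol and fatty acid metabolism: 18 enzymes that build cholesterol from acetyl-CoA, 5 enzymes of fatty acid synthesis, 5 regulators of these pathways, the sterol carrier gene Stard4, the efflux transporters Abca1 and Abcg1, and the phosphatidate phosphatase gene Lpin1. They were taken by symbol from a list, and all 32 were found among the 32681 genes of the deposited table. No member of the list is a lipoprotein receptor, so uptake is described from 10 other genes. RNA was sequenced from 4 primary neuronal cultures of neocortex from wild-type CD-1 mouse embryos at embryonic day 13. Of these, 2 received a control short hairpin RNA (shRNA) by transfection and 2 received an shRNA against DcpS, an enzyme that cleaves the cap remnants released by mRNA decay. Both DcpS shRNA libraries carry the same construct name in their titles, so effects of the target and of that hairpin cannot be told apart, and the share of cells that took up the shRNA is not given in the sources used here.

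Cells make cholesterol by condensing acetyl-CoA units into mevalonate, turning mevalonate into isoprenoid units, joining these to squalene, and folding and trimming squalene to the sterol. The pathway's genes are driven together by the sterol regulatory element-binding proteins, encoded by Srebf1 and Srebf2, which Scap escorts out of the endoplasmic reticulum when sterol is low and which the Insig proteins hold back when sterol is plentiful. Fatty acid enzymes respond mainly to the Srebf1 products, and oxysterols acting through liver X receptors raise Abca1 and Abcg1. In the intact brain, lipoprotein cholesterol of the blood does not enter the tissue, so neurons and glia rely on sterol made within it. Whether cells of these cultures do so was not tested.

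With DcpS shRNA, 6 of the 18 cholesterol enzymes were higher: Hmgcs1, Idi1 and Mvk of the mevalonate branch and Cyp51, Nsdhl and Dhcr7 of the sterol branch, by 17.5% to 25.2%. The regulator Srebf1 was higher and Stard4 was lower. None of the 5 fatty acid synthesis enzymes, neither efflux transporter and none of the other 4 regulators passed the test. In all, 7 members were higher, 1 was lower and 24 were not called (limma on log2(normalised read count + 1), Benjamini-Hochberg adjusted p under 0.05 over 18110 genes). Among all genes tested 5.79% were called, 2.14% higher and 3.65% lower, and 3.01% were higher among the 12114 tested genes whose mean was at least that of the lowest member, Ebp. All 32 members passed the filter on low values.

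The recovered read totals ran from 17754768 to 21793685 per library. The targeted gene, Dcps, had normalised read counts of 499.8 and 506.6 in the controls, against 114.5 and 119.6 with DcpS shRNA (log2 fold change −2.10, SE 0.11; limma, Benjamini-Hochberg adjusted p 1.52e-08). The cultures expressed neuronal markers at high levels (Tubb3 at 19013 to 19935 normalised read counts in the 4 libraries), while the endothelial marker Cldn5, the microglial marker P2ry12 and the oligodendrocyte factor Sox10 were each listed at 0 in at least 1 library and stayed below 5 in the others. No label states that the libraries are from separate litters or platings, so the p-values reflect the spread among these 4 samples alone, and that spread may be technical. For any 1 gene, a two-sided exact permutation test of 2 against 2 libraries has 0.333 as its smallest p, so the p-values rest on the spread that limma pools across genes.

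The sequences just before the start sites of 5 members called higher are shown first, with that of Fasn, the fatty acid synthase gene, which was not called, for comparison. Each is the 140 bases before the start that RefSeq annotates, read on the gene's own strand on GRCm38.p6. The GENCODE spans given further on begin upstream of the RefSeq start for Idi1 and Cyp51, so that all marked boxes of Idi1 and the CCAAT box of Cyp51 lie inside the GENCODE gene. Capitals mark the sterol regulatory element TCACNCCAC, the CCAAT box bound by NF-Y and the GGGCGG box bound by Sp1, each on either strand.
Idi1, chr13:8885466-8885605, plus strand: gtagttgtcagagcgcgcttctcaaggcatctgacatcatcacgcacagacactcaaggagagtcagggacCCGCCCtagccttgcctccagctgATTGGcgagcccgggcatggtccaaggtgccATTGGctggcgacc
Hmgcs1, chr13:119690211-119690350, plus strand: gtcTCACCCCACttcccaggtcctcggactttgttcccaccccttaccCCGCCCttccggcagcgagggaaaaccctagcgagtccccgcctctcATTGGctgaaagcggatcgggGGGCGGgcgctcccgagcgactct
Cyp51, chr5:4104698-4104837, minus strand: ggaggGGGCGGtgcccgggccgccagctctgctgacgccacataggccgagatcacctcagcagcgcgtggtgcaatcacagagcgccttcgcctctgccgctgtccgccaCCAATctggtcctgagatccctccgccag
Mvk, chr5:114444129-114444268, plus strand: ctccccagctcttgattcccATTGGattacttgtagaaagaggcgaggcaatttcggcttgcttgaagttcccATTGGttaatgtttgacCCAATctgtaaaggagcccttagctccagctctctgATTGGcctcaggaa
Nsdhl, chrX:72918381-72918520, plus strand: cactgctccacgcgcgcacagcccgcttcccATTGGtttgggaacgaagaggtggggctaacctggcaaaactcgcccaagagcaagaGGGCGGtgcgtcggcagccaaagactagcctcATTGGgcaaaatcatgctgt
Fasn, chr11:120824548-120824687, minus strand: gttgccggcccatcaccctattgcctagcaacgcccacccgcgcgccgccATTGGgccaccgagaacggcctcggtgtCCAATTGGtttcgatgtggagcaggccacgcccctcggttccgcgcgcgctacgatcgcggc

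Of the 6 windows, only that of Hmgcs1 held the sterol regulatory element as spelled here. All 6 held a CCAAT box: Mvk had 4, Fasn 3, Idi1 and Nsdhl 2 each, and Hmgcs1 and Cyp51 1 each. In Fasn a pair of these boxes shares bases on opposite strands. The GGGCGG box was in the windows of Hmgcs1, Idi1, Cyp51 and Nsdhl and not in those of Mvk and Fasn. Mvk had a GGGCGG box that began 150 bases before the start, outside the window. Windows of uncalled cholesterol enzymes, not shown, held these boxes as well. Those of Mvd, Lss, Tm7sf2, Msmo1, Hsd17b7 and Ebp held both CCAAT and GGGCGG. Those of Pmvk and Sc5d held CCAAT only, and that of Acat2 held GGGCGG only.

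Over the whole promoters, from 250 bases before to 50 after the start, 25 members had an entry, with 33 promoters. CCAAT was in 14 of 18 promoters of cholesterol enzymes (77.8%), in 7 of 15 promoters of the other members (46.7%) and in 37.4% of all 32851 promoters. GGGCGG was in 15 of 18 (83.3%), in 10 of 15 (66.7%) and in 35.7%, respectively. CACGTG, the E-box, was in 3 of 18 (16.7%), in 4 of 15 (26.7%) and in 7.15%. TCACNCCAC was in 1 of 18, in 0 of 15 and in 1.24% of all promoters. These shares are descriptions of letters and were not tested. Abcg1, Fdft1, Fdps, Scd1, Scd2, Sqle and Stard4 had no entry. Dhcr7 and Srebf1 have more than 1 annotated start and are not shown.

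All 7 members of the mevalonate branch lay above both controls in both DcpS shRNA libraries. Among all genes tested, both DcpS shRNA libraries lay above both controls for 24.4%. The branch's median log2 fold change was 0.26, beside 0.00 (0.000742) for all genes tested. Of the 7, 3 passed the test.

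Idi1, the isomerase that makes the reactive isoprenoid unit (chromosome 13, 8885501 to 8892451, plus strand, GRCm38, GENCODE M21), had the largest rise of any member. Its normalised read counts were 2951 and 2982 in the controls, against 3699 and 3731 with DcpS shRNA. The gap between the groups was far wider than the gap within either. The log2 fold change was 0.32 (SE 0.05; limma, Benjamini-Hochberg adjusted p 0.000926), a rise of 25.2%.

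Hmgcs1, the hydroxymethylglutaryl-CoA synthase gene (chromosome 13, 119690379 to 119708260, plus strand), had normalised read counts of 12574 and 12987 in the controls, against 14725 and 15972 with DcpS shRNA. The groups did not overlap, and the DcpS shRNA libraries differed more from each other than the controls did. The log2 fold change was 0.26 (SE 0.05; limma, Benjamini-Hochberg adjusted p 0.00667). Mvk, the kinase that phosphorylates mevalonate (chromosome 5, 114444269 to 114460591, plus strand), had 707.9 and 694.3 in the controls, against 865.0 and 805.7 with DcpS shRNA. Its groups did not overlap either, and its log2 fold change was 0.25 (SE 0.07; limma, Benjamini-Hochberg adjusted p 0.0400).

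The other 4 genes of the branch had log2 fold changes between 0.11 and 0.27 without passing in the main fit. With the set number of the titles added to the fit as a block, Mvd, Pmvk and Fdps passed. Mvd, the decarboxylase that forms isopentenyl diphosphate, had 814.3 and 901.4 normalised read counts in the controls, against 944.0 and 1135 with DcpS shRNA (log2 fold change 0.27, SE 0.08; limma, Benjamini-Hochberg adjusted p 0.0690). Pmvk, the next kinase after Mvk, had 608.1 and 697.4 against 724.1 and 835.9. With 1 library left out, the log2 fold change ran from 0.14 to 0.41 for Mvd and from 0.15 to 0.36 for Pmvk, and both passed without control 2 and without DcpS shRNA 1. The controls alone had an SD of 61.6 normalised read counts for Mvd and 63.1 for Pmvk. Fdps, which joins isoprenoid units to farnesyl diphosphate, had 594.8 and 541.5 against 636.9 and 694.0. Acat2, the thiolase of the entry step, had 6569 and 6704 against 6893 and 7479, the smallest difference of the branch at 0.11.

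**Figure D1:**
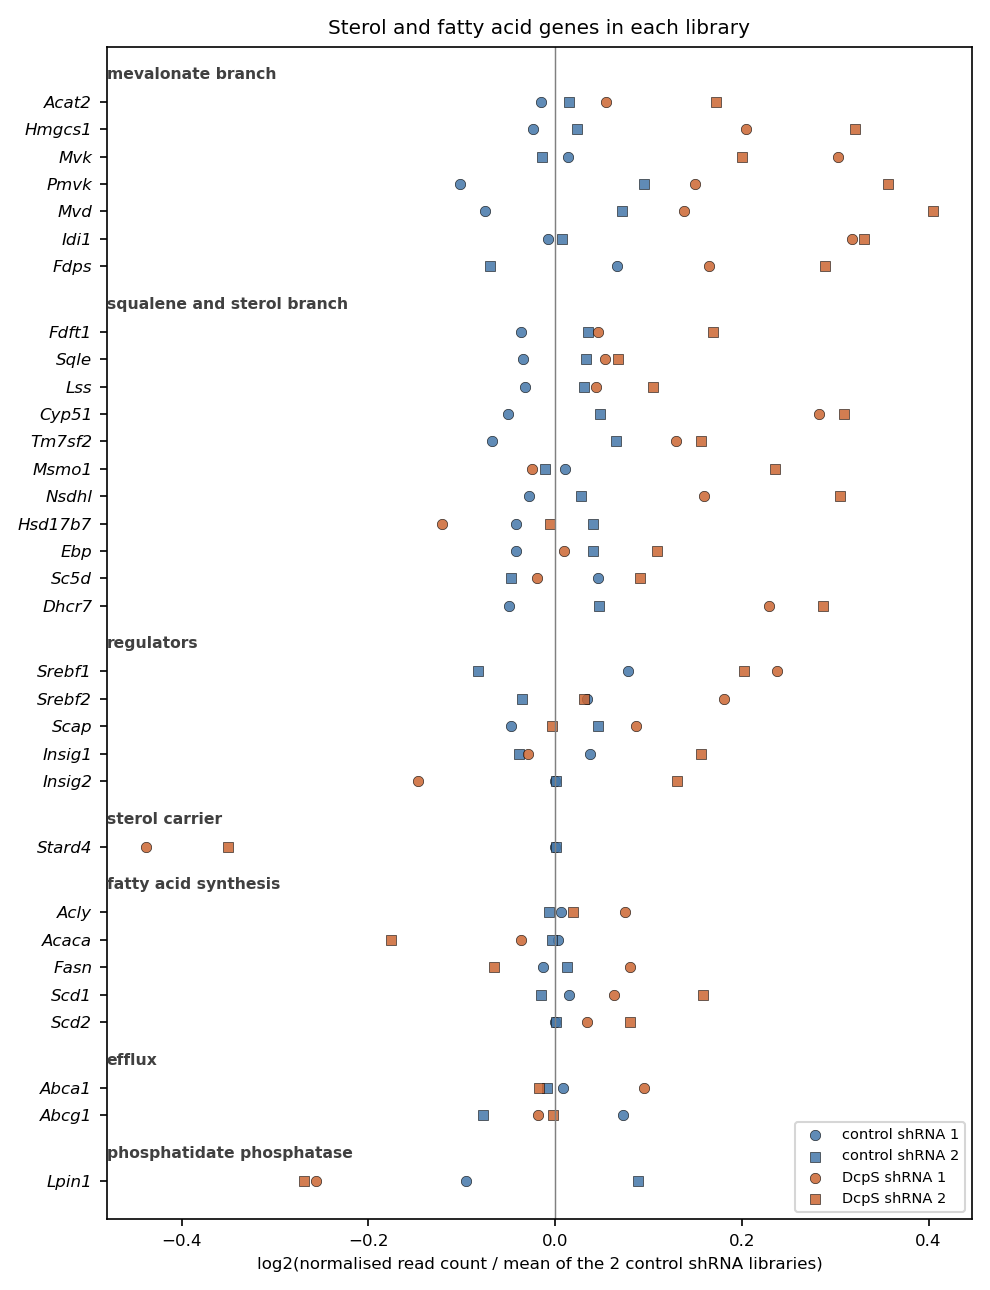
Each point is a library's normalised read count of a gene on a log2 scale relative to the mean of the 2 control shRNA libraries (horizontal axis), with the 32 genes by role on the vertical axis. Blue points are controls and orange points DcpS shRNA, circles library 1 and squares library 2. All 7 mevalonate genes have both orange points to the right of both blue points, and Stard4 has both far to the left.

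In the squalene and sterol branch 3 of 11 genes were higher, beside 2.14% of all genes tested. The branch's median log2 fold change was 0.11. Both DcpS shRNA libraries lay above both controls for 7 of the 11, beside 24.4% of all genes tested. All 3 called genes act after lanosterol has formed. So do the uncalled Msmo1, Hsd17b7, Tm7sf2, Ebp and Sc5d, and thus most genes of the branch.

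Cyp51, the demethylase that acts on lanosterol (chromosome 5, 4081145 to 4104746, minus strand), had normalised read counts of 3610 and 3865 in the controls, against 4545 and 4631 with DcpS shRNA, with no overlap between the groups. Its log2 fold change was 0.30 (SE 0.05; limma, Benjamini-Hochberg adjusted p 0.00270). Of its exon bases, 3.76% overlap exons of Akap9 on the opposite strand. Akap9 went the other way, with 5801 and 5572 in the controls, against 5082 and 4425 with DcpS shRNA.

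Dhcr7, a reductase that acts at the end of the pathway (chromosome 7, 143823145 to 143848410, plus strand), had 1521 and 1626.5 normalised read counts in the controls, against 1844 and 1920 with DcpS shRNA. The lower DcpS shRNA library lay above the higher control by more than either group's spread. The log2 fold change was 0.26 (SE 0.06; limma, Benjamini-Hochberg adjusted p 0.0128). Nsdhl, a dehydrogenase that works with Msmo1 and Hsd17b7 to remove methyl groups from the sterol ring (chromosome X, 72918557 to 72958514, plus strand), had 1460 and 1518 against 1663 and 1839. Its log2 fold change was 0.23 (SE 0.06; limma, Benjamini-Hochberg adjusted p 0.0344).

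The 3 steps that make and fold squalene did not pass. Fdft1, the squalene synthase gene, had 4849 and 5095 normalised read counts in the controls, against 5133 and 5590 with DcpS shRNA (log2 fold change 0.11, 95% interval −0.01 to 0.23). Of its exon bases, 18.3% overlap exons of Ctsb on the opposite strand, and Ctsb had 2722 and 2905 against 3522 and 3633. Sqle, the squalene epoxidase gene, had 4135 and 4332 against 4392 and 4438 (0.06, 95% interval −0.05 to 0.17), and Lss, the lanosterol synthase gene, 2799 and 2924 against 2949 and 3078 (0.07, 95% interval −0.04 to 0.19). The upper ends of the Sqle and Lss intervals lie below the log2 fold changes fitted for the 6 called enzymes, each of which has its own error. The differences between genes were not tested.

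Nsdhl's partners did not pass. Msmo1, the methylsterol oxidase gene, had 2686 and 2648 normalised read counts in the controls, against 2621 and 3140 with DcpS shRNA, so that only library 2 of the DcpS shRNA group lay above the controls. Hsd17b7, a sterol ketoreductase gene, had 1015 and 1074 against 960.4 and 1040 and was the only 1 of the 18 enzymes with a negative log2 fold change (−0.06, 95% interval −0.20 to 0.08). The remaining members of the branch were the reductase gene Tm7sf2 (log2 fold change 0.14), the isomerase gene Ebp (0.06) and the desaturase gene Sc5d (0.04). Ebp, at 101.7 to 112.9 normalised read counts, had the widest interval of any member, −0.26 to 0.38.

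Taking the 18 enzymes as a list, 17 had a positive log2 fold change, beside 50.2% of all genes tested, and their median was 0.19. Their summed normalised read counts were 49457 and 51140 in the controls, against 55215 and 59099 with DcpS shRNA. The enzymes also differed between libraries of the same group: 14 of 18 were higher in control 2 than in control 1, and 17 of 18 were higher in DcpS shRNA 2 than in DcpS shRNA 1, with median log2 differences of 0.06 and 0.11. Over all genes tested these shares were 50.4% and 50.5%. Against the control of the same number, 15 of 18 were higher in DcpS shRNA 1 and 17 of 18 in DcpS shRNA 2, with medians of 0.14 and 0.23.

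**Figure D2:**
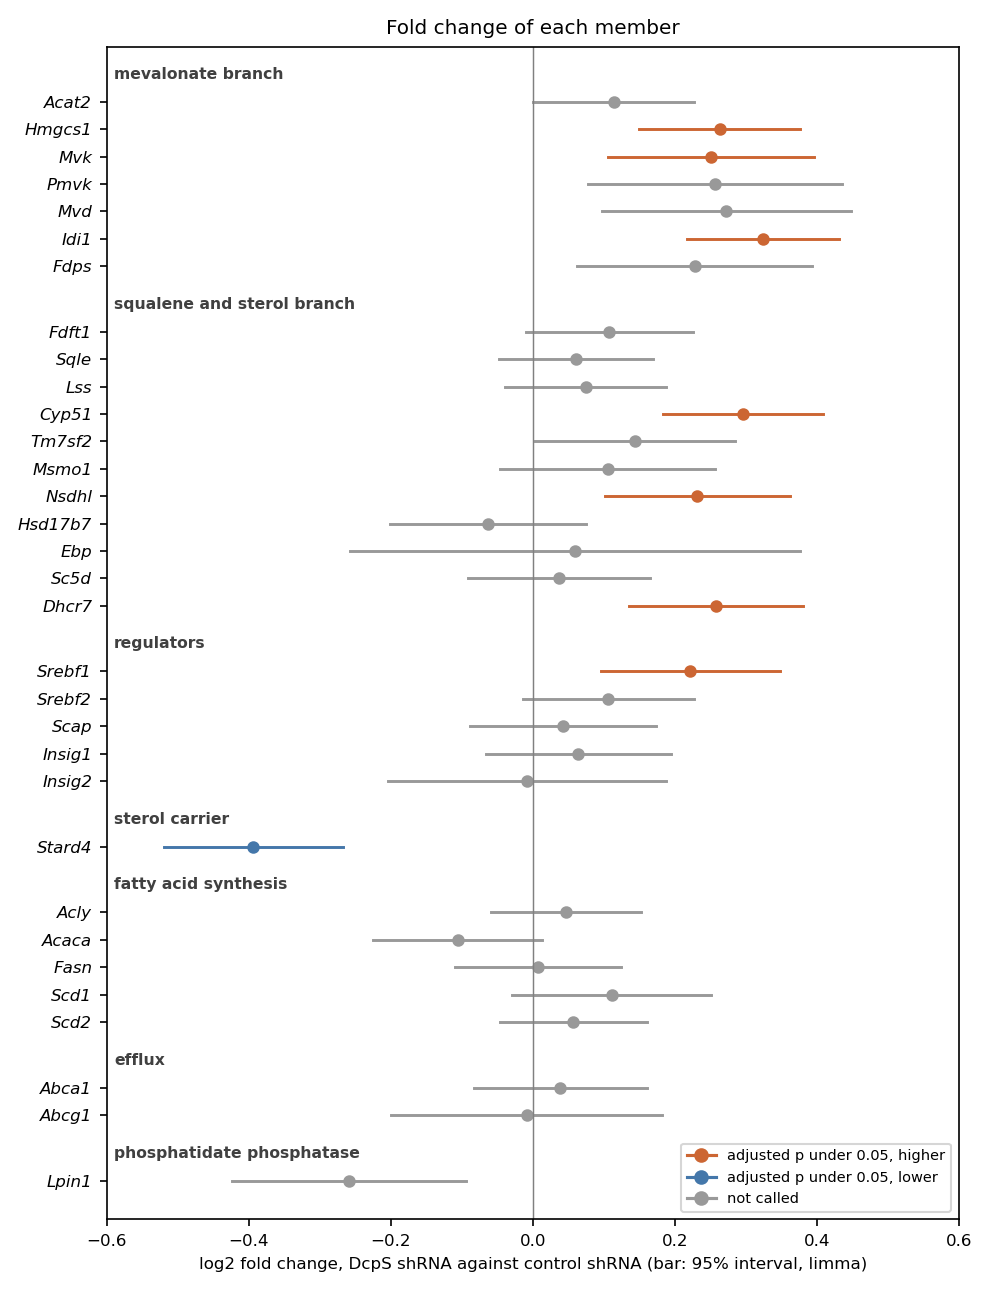
Log2 fold change of DcpS shRNA against control shRNA for each member (points) with its unadjusted 95% interval from limma (bars), by role. Orange marks the 7 members called higher, blue Stard4, called lower, and grey the 24 not called. Intervals of the 7 mevalonate genes lie above 0, and those of the fatty acid enzymes include 0.

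The regulators were less uniform. Srebf1, whose products are best known for driving fatty acid genes (chromosome 11, 60199089 to 60222581, minus strand), had normalised read counts of 2328 and 2083 in the controls, against 2601 and 2537 with DcpS shRNA. The controls lay further apart than the DcpS shRNA libraries, and the groups did not overlap. The log2 fold change was 0.22 (SE 0.06; limma, Benjamini-Hochberg adjusted p 0.0373). The table gives 1 value per gene, so the alternative first exons of Srebf1 were not told apart. Srebf2, whose product is the main driver of cholesterol genes, had 7334 and 6988 against 8121 and 7316. DcpS shRNA 2 fell between the controls, and the log2 fold change of 0.11 did not pass (SE 0.06; limma, Benjamini-Hochberg adjusted p 0.340). Without DcpS shRNA 2 the log2 fold change of Srebf2 was 0.18 and passed (limma, Benjamini-Hochberg adjusted p 0.0121), and without DcpS shRNA 1 it was 0.03.

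Scap, the escort, had 1188 and 1267 normalised read counts in the controls, against 1303 and 1225 with DcpS shRNA, and its groups overlapped (log2 fold change 0.04, 95% interval −0.09 to 0.17). Insig1, the retention factor that is itself a target of the pathway, had 3550 and 3368 against 3389 and 3855 (0.06, 95% interval −0.07 to 0.19). Insig2, the other Insig gene, had 482.7 and 483.0 against 436.1 and 528.6 (−0.01, 95% interval −0.20 to 0.19). For Insig2 the controls were nearly equal and the DcpS shRNA libraries fell on either side of them.

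Stard4, which encodes a soluble carrier that moves cholesterol between membranes and is counted among sterol-responsive genes (chromosome 18, 33199355 to 33213862, minus strand), went against the enzymes. Its normalised read counts were 1448 and 1449 in the controls, against 1069 and 1136 with DcpS shRNA. Both DcpS shRNA libraries lay below both controls, as was the case for 24.0% of all genes tested and for 3 of the 32 members. The log2 fold change was −0.39 (SE 0.06; limma, Benjamini-Hochberg adjusted p 0.000658), a change of −23.9%.

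Earlier results of these data had pointed to the 7-base words ACGTGCA and CACGTGC in 3′ untranslated regions of genes that were lower with DcpS shRNA. In annotated 3′ untranslated regions (GENCODE M21), 34.7% of 646 scanned genes called lower held at least 1 of the words, beside 9.43% of 13801 scanned genes tested. The words were chosen with results of these same libraries known, so this difference is not independent of that choice. The lengths of the regions were not matched. Among the 32 members, Stard4 and Sqle held a word. Stard4 is the only member called lower, and Sqle was not called. The part of the words in the Stard4 result was not tested.

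The fatty acid synthesis enzymes had a median log2 fold change of 0.05, with 0 of 5 called by limma, edgeR or DESeq2, and 0 of 5 at an unadjusted limma p under 0.05. Their 95% intervals reached at most 0.25, for Scd1. With 1 library left out the median ran from 0.02 to 0.06. Fasn, the synthase that builds palmitate, had 9251 and 9422 normalised read counts in the controls, against 9867 and 8921 with DcpS shRNA. Its DcpS shRNA libraries lay on either side of the controls (log2 fold change 0.01, 95% interval −0.11 to 0.12). Acly, which supplies cytosolic acetyl-CoA to both pathways, had 9765 and 9674 against 10234 and 9847 (0.05, 95% interval −0.06 to 0.15). Acaca, the carboxylase that makes malonyl-CoA, had 3925 and 3909 against 3820 and 3469. Both DcpS shRNA libraries of Acaca were below the controls, without passing (−0.11, 95% interval −0.22 to 0.01). Without DcpS shRNA 1 Acaca was called lower (log2 fold change −0.18; limma, Benjamini-Hochberg adjusted p 0.0252), and without DcpS shRNA 2 the value was −0.04.

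The desaturase genes Scd1 and Scd2 introduce the double bond of oleate. Scd2, the abundant brain form, had 29086 and 29110 normalised read counts in the controls, against 29798 and 30756 with DcpS shRNA (log2 fold change 0.06, 95% interval −0.05 to 0.16). Scd1 had 828.5 and 811.2 against 856.8 and 915.2 (0.11, 95% interval −0.03 to 0.25). Reads of similar gene copies may have been split or dropped by the counting, so values of Scd1 and Scd2, which have the relatives Scd3 and Scd4, and of Acat2, which has the close copy Acat3, are uncertain. Acat3 itself had 1655 and 1649 against 1681 and 1781. Exons also overlap those of another gene for Hmgcs1 (12.1% of its exon bases, with Gm48342), Fdps (26.7%, Gm43738), Tm7sf2 (12.1%, Vps51) and Scap (13.2%, 5830462I19Rik). Of these, Vps51 had 599.9 to 717.4 normalised read counts and the others stayed under 24.

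Neither efflux transporter moved beyond its spread. Abca1, which loads cholesterol onto apolipoproteins, had 1770 and 1749 normalised read counts in the controls, against 1879 and 1739 with DcpS shRNA (log2 fold change 0.04, 95% interval −0.08 to 0.16). Abcg1, which passes sterol on to lipoprotein particles, had 408.6 and 368.2 against 383.4 and 387.8 (−0.01, 95% interval −0.20 to 0.18). In both genes the groups overlapped. Lpin1, which encodes a phosphatidate phosphatase of triglyceride and phospholipid synthesis, had 649.0 and 737.4 in the controls, against 580.6 and 575.5 with DcpS shRNA. Its log2 fold change of −0.26 did not pass in the main fit (SE 0.08; limma, Benjamini-Hochberg adjusted p 0.0643). With the set number of the titles as a block, Lpin1 passed.

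Levels between genes were compared as reads per kilobase of annotated exon, scaled to library size (RPKM). Scd2 was the highest member at 269 in the controls, followed by Hmgcs1 at 140, Acat2 at 132 and Acly at 92.9. The cholesterol enzymes spanned 2.29 for Ebp to 140 for Hmgcs1, and Abcg1 was near the bottom at 2.69. Among the called members, Idi1 went from 42.7 to 53.5 and Cyp51 from 42.7 to 52.4, while Stard4 went from 13.1 to 9.96 on this scale. Neighbours such as Fasn, Cyp51 and Idi1, at 43.0, 42.7 and 42.7 in the controls, are closer together than the spread between libraries. Exons of all transcripts of a gene were joined to give its length, which lowers the value of genes with long alternative exons.

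**Figure D3:**
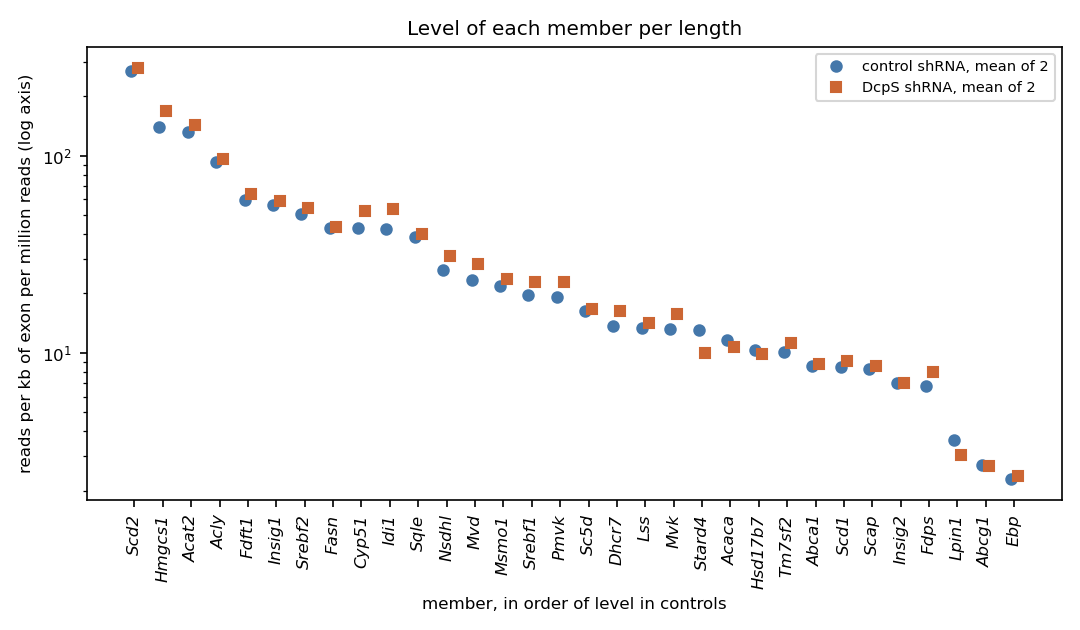
Mean level of each member in RPKM (vertical axis, logarithmic) in 2 control shRNA libraries (blue circles) and 2 DcpS shRNA libraries (orange squares), ordered by the control level. Levels run from 2.29 for Ebp to 269 for Scd2 in the controls, and the change between groups is small beside that range.

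Other genes of lipid metabolism were described from 6 lists of 65 genes, of which 62 passed the filter. Of these 62, 5 were higher and 2 lower, beside 2.14% higher and 3.65% lower among all genes tested. In elongation, desaturation and activation of fatty acids 4 of 19 were higher and 0 lower, with a median log2 fold change of 0.12. Acsl4, which activates arachidonic acid, had 622.4 and 585.6 normalised read counts in the controls, against 784.1 and 850.4 with DcpS shRNA (log2 fold change 0.44, SE 0.07; limma, Benjamini-Hochberg adjusted p 0.00153). Elovl6, which elongates palmitate, had 2016 and 2276 against 2729 and 2514 (0.29, SE 0.06). The elongase gene Elovl5 (0.20, SE 0.06; adjusted p 0.0421) and the desaturase gene Fads2 (0.18, SE 0.05; adjusted p 0.0484, limma) were the others.

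Among 13 genes of regulator processing and sterol sensing 1 was higher and 1 lower. Mbtps2, the protease that frees the regulators inside the membrane, had 869.4 and 957.8 normalised read counts in the controls, against 1158 and 1144 with DcpS shRNA (log2 fold change 0.34, SE 0.07; limma, Benjamini-Hochberg adjusted p 0.00492). Mbtps1, which makes the cut before it, had 2686 and 2763 against 3022 and 2790 and was not called (named after its values were seen). Erlin2, an endoplasmic reticulum protein that takes part in sterol sensing, was lower (−0.20, SE 0.06; limma, Benjamini-Hochberg adjusted p 0.0479), and its 3′ untranslated region holds 1 of the words given above. Erlin1, of the same list, went the other way, with 339 and 339 in the controls, against 390 and 430 with DcpS shRNA. Its log2 fold change of 0.27 was not called (limma, Benjamini-Hochberg adjusted p 0.102, named after its values were seen). Of the 65 genes of the 6 lists, 5 held a word (7.69%), beside 9.43% of scanned genes tested. They were Erlin2 and the uncalled Sorl1, Ggps1, Pdss1 and Lpin2, but not Lrp1.

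For uptake and lysosomal export 1 of 10 genes was lower and 0 higher, with a median log2 fold change of −0.06. Lrp1, a large endocytic receptor for lipoproteins, had 6839 and 6848 normalised read counts in the controls, against 6260 and 5674 with DcpS shRNA (−0.20, SE 0.06; limma, Benjamini-Hochberg adjusted p 0.0434). The lipoprotein receptors Vldlr (−0.07) and Lrp8 (−0.05) and the lysosomal exporter Npc1 (0.18), named after their values were seen, did not pass. None of the 11 genes of the non-sterol isoprenoid branch passed, with Coq2 of ubiquinone synthesis at 0.23, and none of 4 tested genes of sterol esterification and oxidation did, with Cyp7b1 at −0.26. None of 5 tested lipid transporters and lipins outside the members passed, with Abca3 at 0.09.

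**Figure D4:**
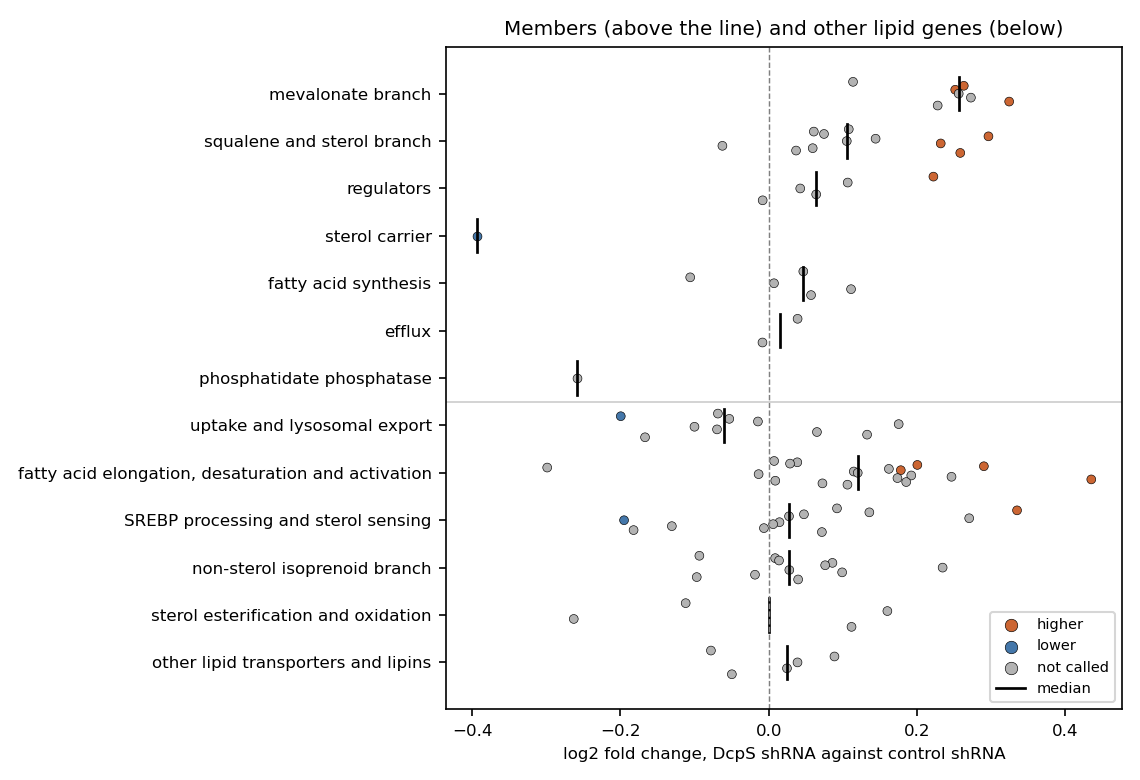
Log2 fold change of DcpS shRNA against control shRNA (horizontal axis) for the members by role, above the line, and for 62 other lipid genes by list, below it. Points are genes, orange called higher, blue called lower and grey not called; black bars are medians, and the dashed line is the median of all genes tested. The mevalonate branch has the highest median of the lists shown, 0.26.

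Astrocyte and mesenchymal markers moved with the comparison. Astrocytes are known for sterol synthesis. Of 7 tested astrocyte markers 4 (Gfap, Aqp4, Gja1 and Sparcl1) were lower and 0 higher, and the list's summed normalised read counts were 6968 and 7365 in the controls, against 5680 and 5944 with DcpS shRNA. All 7 fibroblast and mural markers were lower, with sums of 10833 and 11946 against 6713 and 6417. The sums of 8 neuronal markers were 95100 and 93516 against 90797 and 90285, with Syn1 (log2 fold change 0.27) and Rbfox3 (0.24) higher and Snap25 (−0.26) lower. Oligodendrocyte lineage markers summed to 582 and 627 against 562 and 576, with Pdgfra lower (log2 fold change −0.63), Mbp higher (0.47), and Olig1 (−0.58) and Olig2 (−0.79) not called. Microglial markers summed to 156 and 153 against 142 and 150, and endothelial markers to 96.9 and 132 against 80.9 and 80.5, with Kdr lower (−0.74). With a library left out or with DESeq2, calls ended for 2 of the 4 astrocyte markers (Gfap and Aqp4), 2 of the 7 fibroblast and mural markers (Dcn and Lum), and for Rbfox3, Syn1, Snap25, Pdgfra, Mbp and Kdr. The log2 fold change of Gfap was −0.91 and, without control 2, −0.51. In bulk cultures fewer cells of a type and less RNA per cell cannot be told apart, and the part of these shifts in the results on lipid genes was not tested.

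The calls of single enzymes depended on the libraries and the tool. The direction of the 8 called members did not change in the 16 alternatives (15 for Stard4). With a library left out it could not change, since the groups of these members did not overlap. The other alternatives refit the same 4 libraries. Limma without its trend and robust fitting called 0 genes, so all 8 calls ended there. Without control 1 only 2 members were higher, Idi1 and Srebf1, where 1.31% of all genes were. The calls that ended there were Cyp51 (limma, Benjamini-Hochberg adjusted p 0.0871), Mvk (0.107), Hmgcs1 (0.165), Dhcr7 (0.177) and Nsdhl (0.211). Without control 2 calls ended for Hmgcs1 (0.0695), Nsdhl (0.0769), Mvk (0.188) and Srebf1 (0.476), whose log2 fold change fell from 0.22 to 0.14 there (limma, Benjamini-Hochberg adjusted). Without DcpS shRNA 1 the call of Mvk ended (0.149), and without DcpS shRNA 2 that of Nsdhl (0.156; limma, Benjamini-Hochberg adjusted). Other members gained a call. Without DcpS shRNA 1, 6 more were higher, Mvd (0.000759), Msmo1 (0.00420), Pmvk (0.00992), Acat2 (0.0128), Fdft1 (0.0251) and Fdps (0.0475), and Acaca was lower (limma, Benjamini-Hochberg adjusted). Without control 2 Pmvk (0.0267) and Mvd (0.0296) were higher, without control 1 Lpin1 was lower (0.0279), and without a filter on low values Mvd was higher (0.0342; limma, Benjamini-Hochberg adjusted). DESeq2 called 3 members higher, Idi1, Hmgcs1 and Cyp51, where it called 0.756% of all genes higher, and it called Stard4 lower. Its adjusted p-values for the others were 0.0606 for Dhcr7, 0.136 for Srebf1, 0.161 for Nsdhl and 0.265 for Mvk.

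Among the other lipid genes, Acsl4 kept its call without each library in turn and with DESeq2. With control 1 left out, the calls of Elovl6 (0.203) and Mbtps2 (0.0710) ended (adjusted p from limma). Calls ended for Elovl5 without control 1, control 2 or DcpS shRNA 1 (0.0650 to 0.293), for Fads2 without either control (0.254 and 0.405), for Erlin2 without control 1, control 2 or DcpS shRNA 1 (0.0790 to 0.293), and for Lrp1 without control 1, control 2 or DcpS shRNA 2 (0.0933 to 0.268). DESeq2 called none of these last 4, and some of their calls also ended with TMM scaling (Fads2, 0.0546), without a filter (Erlin2, 0.0586) or with word genes left out (Lrp1 0.0528, Elovl5 0.0512 and Fads2 0.0583).

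**Figure D5:**
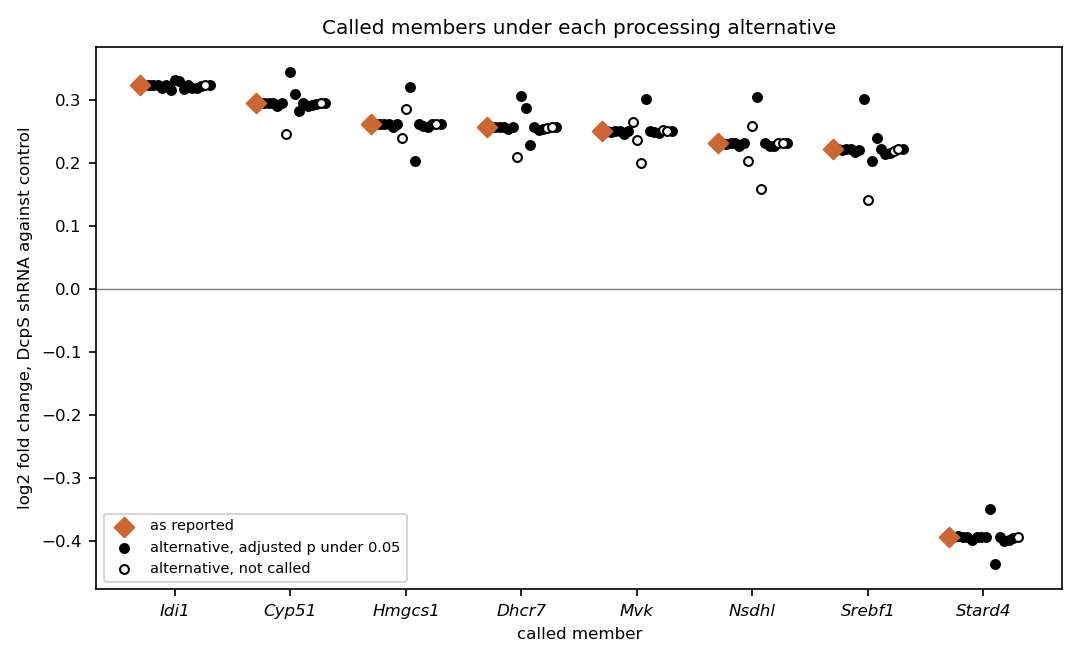
Log2 fold change (vertical axis) of the 8 called members as reported (orange diamonds) and under 16 processing alternatives, or 15 for Stard4, which 1 of them leaves out (circles, filled where the adjusted p stays under 0.05 and open where it does not). All points of the 7 higher members lie above 0 and all points of Stard4 below it, and Idi1 and Stard4 have 1 open circle each. With a library left out, the side of 0 was fixed because the groups of these members did not overlap.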

How the data were processed

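Bulk RNA sequencing of 4 mouse cultures was used. Per the submitters' processing notes, HISAT2 2.2.0, SAMtools 1.3.1, Picard, featureCounts and DESeq2 were used with GRCm38 (annotation, strand and multi-mapping settings: not given in the sources used here). Values are a signal that the authors deposited as gene counts divided by 1 size factor per library, with nothing pooled: 100% of values were whole multiples of their column's step (tolerance 0.001), and the implied factors, 0.895 to 1.10, equalled recomputed median-of-ratios factors. Such scaling hides a change shared by all transcripts. The recovered reads gave the filter (edgeR filterByExpr, minimum count 10; 18110 genes) and the count tests. A count of 0 allows up to 3 reads, 0.138 to 0.169 CPM (counting error only).

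The main test was limma 3.58.1 in R 4.3.3 on log2(value + 1), using its trend and robust options and a single group term, two-sided, Benjamini-Hochberg adjusted over all genes. The log2(value + 1) scale understates changes of low genes. edgeR 4.0.16 and DESeq2 1.42.0 were alternatives. Members, lists, motifs and words were chosen with earlier results of these data known. Named were all called members, all regulators, fatty acid enzymes, Stard4 and both transporters, and of the other lists the called genes and the largest change.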

Additional observations from a re-analysis of the deposited data

How the results depend on the processing

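The alternatives were pseudocounts of 0.5 and 5, no filter, a mean of at least 5 CPM, TMM or library-total scaling, each library left out in turn, a replicate block, edgeR with and without the block, DESeq2, limma without trend or robust fitting, and, added after the data were seen, genes with a 7-base word left out. Of 510 fold changes of members under these 16 alternatives, 457 kept direction and side of the threshold, 23 lost and 19 gained a call, and 11, all of uncalled members with a library left out, changed sign. With a library left out, the members called ran from 4 to 14 (2 to 12 higher, 1 to 2 lower; as reported 8, 7 and 1) and all genes called from 594 to 1439 (225 to 490 higher, 369 to 949 lower; as reported 1048, 387 and 661). Ranges that crossed 0 were −0.025 to 0.2356 for Msmo1, −0.0183 to 0.0921 for Sc5d, −0.0656 to 0.0798 for Fasn, −0.0038 to 0.0889 for Scap, −0.0289 to 0.157 for Insig1, −0.1466 to 0.1303 for Insig2, −0.0169 to 0.0948 for Abca1 and −0.0833 to 0.0665 for Abcg1. DESeq2 called 448 genes (137 higher, 311 lower) and 4 members (3 higher). Limma without trend or robust fitting called 0 genes (0 higher, 0 lower) and 0 members (0 higher, 0 lower), with 2538 genes and 7 members at an unadjusted p under 0.05, where edgeR called 1077 genes and 8 members. Without word genes 691 genes were called (380 lower) and 0 members lower, since Stard4 was among those left out. The replicate block, with the set number in the titles, gave 1626 genes (646 higher) and 12 members, of which 2 lower: it added Mvd (limma adjusted p 0.00273), Pmvk (0.0130), Fdps (0.0486) and Lpin1 (0.0173), so that 6 of 7 mevalonate genes passed, and ended no member's call. edgeR with the block added Mvd, Pmvk and Lpin1 (2 members lower). Deviations of same-numbered libraries correlated at 0.0429 across all genes tested, and the titles do not say what a set shares, so the numbers were not taken as pairs. The cholesterol enzymes were mostly higher in library 2 in both groups, so this correlation does not settle pairing for them. The cause was not tested for any of these. At these depths Ebp and Abcg1 had the fewest reads for their length and Ebp the widest interval.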
